A study of Mus musculus with 2 samples.

Results

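Bone morphogenetic protein (BMP) signalling and its ID target genes were followed through the non-cardiomyocyte cells of mouse hearts, with 10 genes chosen by symbol: the ligands Bmp2, Bmp4 and Bmp6, the receptors Bmpr1a and Bmpr2, the inhibitory SMAD Smad6, and Id1, Id2, Id3 and Id4. All 10 were found among the 31053 gene rows of both libraries. The TAC library came from hearts taken on day 20 after transverse aortic constriction, surgery in which a narrowed aortic arch raises the pressure the left ventricle must pump against, and the Sham library from hearts taken on day 20 after a sham operation. All mice were male C57BL6/J wildtype; their age and the number of hearts in each library are not stated in the labels. Hearts were digested with collagenases and a protease, cardiomyocytes were left to settle out, and viable cells were sorted before droplet capture, so the libraries hold cells that survived digestion. Each group is 1 library, so no difference given here has a replicate check or a test, and intervals cover counting error only.

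BMP ligands are secreted dimers that bind pairs of type I receptors, such as the product of Bmpr1a, and type II receptors, such as that of Bmpr2. The receptors phosphorylate SMAD1, SMAD5 and SMAD9, which enter the nucleus with SMAD4 and switch on target genes. Id1, Id2 and Id3 are well-known targets and encode helix-loop-helix proteins without a DNA-binding part, which hold E proteins such as TCF3, TCF4 and TCF12 away from DNA. Smad6 is also a target and its product blocks the pathway that induced it. In the heart this pathway is known for its part in endocardial cushion and valve formation and in vessel growth.

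Because Smad6, Id2 and Id3 are known targets of the pathway, their promoters are shown, as 250 bases before to 50 bases after the RefSeq start on GRCm38.p6. Capitals mark the letters of 7 motifs that were searched on both strands: GGCGCC and GTCTAGAC, which SMAD proteins are known to bind, TGACGTCA of CREB-type factors, GCGGGGGCG of EGR factors, the E-box CACGTG, the GC box GGGCGG and the TATA box TATAAA. A promoter was found for 8 of the 10 genes; Bmp2 and Id1 were not among them.
Smad6, chr9:64022010-64022309, minus strand: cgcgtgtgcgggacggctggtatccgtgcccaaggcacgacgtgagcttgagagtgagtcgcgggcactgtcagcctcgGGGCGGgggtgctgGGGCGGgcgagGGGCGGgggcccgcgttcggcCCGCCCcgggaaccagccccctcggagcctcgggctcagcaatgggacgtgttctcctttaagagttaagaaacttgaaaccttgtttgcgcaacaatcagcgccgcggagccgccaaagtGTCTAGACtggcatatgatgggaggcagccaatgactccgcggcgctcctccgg
Id2, chr12:25096043-25096342, minus strand: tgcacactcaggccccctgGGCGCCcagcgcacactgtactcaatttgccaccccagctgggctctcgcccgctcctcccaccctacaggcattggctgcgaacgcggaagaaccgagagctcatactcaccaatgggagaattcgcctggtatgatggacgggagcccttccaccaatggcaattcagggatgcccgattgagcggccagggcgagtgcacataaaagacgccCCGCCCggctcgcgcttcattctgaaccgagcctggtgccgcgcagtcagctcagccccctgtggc
Id3, chr4:136143572-136143871, plus strand: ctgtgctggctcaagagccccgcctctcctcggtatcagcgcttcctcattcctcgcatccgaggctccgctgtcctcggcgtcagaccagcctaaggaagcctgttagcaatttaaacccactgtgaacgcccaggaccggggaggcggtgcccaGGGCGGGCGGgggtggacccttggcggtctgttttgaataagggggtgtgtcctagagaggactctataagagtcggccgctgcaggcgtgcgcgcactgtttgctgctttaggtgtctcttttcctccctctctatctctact
The Smad6 window held GTCTAGAC, which was present in 0.213% of the 32851 RefSeq promoters of this length, and 4 GC boxes. The Id2 window held GGCGCC, present in 11.9% of promoters, and 1 GC box. GGCGCC was also found in the windows of Id4 and of the receptor genes Bmpr1a and Bmpr2, which are not shown. In the Id3 window the only matches were 2 GC boxes that overlap each other; that motif was present in 35.7% of promoters. A match is a run of letters and not a shown binding site. TGACGTCA, GCGGGGGCG, CACGTG and TATAAA, present in 1.79%, 2.91%, 7.15% and 13.6% of promoters, had no match in the Smad6, Id2 and Id3 windows.

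The deposited matrices held 8901 barcodes with 96003109 unique molecular identifiers (UMIs) in the TAC library and 8426 barcodes with 42490230 UMIs in the Sham library, and 15 barcode sequences occurred in both. After filtering, 7854 TAC and 7894 Sham cells were kept, with a median of 11158 UMIs per TAC cell and 4882 per Sham cell. Cells were given a class from marker genes that include none of the 10 genes. Fibroblast-like cells numbered 5399 in the TAC library and 6056 in the Sham library, macrophage-like cells 881 and 1124, endothelial-like cells 608 and 166, and lymphatic endothelial-like cells 227 and 49. The 6 endothelial markers summed to 5553 counts per 1000000 UMIs (CPM) in TAC and 4580 CPM in Sham endothelial-like cells. They were at 1447 CPM in TAC and 1791 CPM in Sham lymphatic endothelial-like cells, 550 CPM in TAC and 1158 CPM in Sham mural-like cells, and 27.3 CPM in TAC and 6.61 CPM in Sham fibroblast-like cells. Lymphatic endothelial-like cells were added below the planned minimum of 50 cells per library, after the cell counts were seen. Mural-like cells (71 in TAC, 35 in Sham) and other small classes are described by level only.

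The ligands had different sources. Bmp6, known from other tissues as a ligand made by endothelium, was highest in endothelial-like cells, at 149 CPM (interval 136 to 163) in the TAC library and 157 CPM (124 to 196) in the Sham library, followed by fibroblast-like cells at 81.8 CPM in TAC and 85.2 CPM in Sham. In TAC, 252 of its 461 endothelial-like UMIs came from 35 endocardial cells of the sub-gates described below. TAC capillary cells held it at 61.5 CPM (52.1 to 72.0). With classes taken from clusters, endothelial-like cells were at 66.3 CPM in TAC and 105 CPM in Sham. Fibroblast-like cells were then at 81.9 CPM in TAC and 85.3 CPM in Sham, so the TAC order turned round. Macrophage-like cells as gated held little Bmp6, with 7.72 CPM in TAC and 1.28 CPM in Sham. Among the classes, Bmp4, a ligand needed for mesoderm formation, was highest in fibroblast-like cells, at 31.2 CPM in TAC and 29.4 CPM in Sham. Its endothelial-like level of 20.3 CPM in TAC and 22.4 CPM in Sham had an interval that overlapped the fibroblast-like one only in the Sham library. TAC endocardial cells of the sub-gates held Bmp4 at 56.5 CPM (34.0 to 88.2, 19 UMIs), above the TAC fibroblast-like interval of 29.8 to 32.5 CPM. TAC capillary cells held it at 12.9 CPM, and Sham endocardial cells at 29.0 CPM from 6 UMIs. Bmp2, a ligand required for cardiac cushion formation, was the only one of the 3 ligands found at a similar level in macrophage-like and fibroblast-like cells within each library. TAC macrophage-like cells held it at 11.4 CPM (9.60 to 13.5) and TAC fibroblast-like cells at 9.51 CPM (8.78 to 10.3), while Sham macrophage-like cells held it at 47.6 CPM (42.6 to 53.0) and Sham fibroblast-like cells at 42.2 CPM (39.98 to 44.6); the intervals overlapped in each library.

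Of the receptors, Bmpr2 was found in all stromal classes. Bmpr2, the type II receptor gene, had 135 CPM in TAC and 238 CPM in Sham endothelial-like cells, 115 and 156 CPM in TAC and Sham mural-like cells, 84.2 and 85.4 CPM in TAC and Sham fibroblast-like cells, and 83.7 and 99.1 CPM in TAC and Sham lymphatic endothelial-like cells. In the TAC library the endothelial-like and mural-like intervals overlapped (122 to 148 and 79.9 to 159 CPM). Bmpr1a, a type I receptor gene, was highest in mural-like cells, at 91.7 CPM (60.9 to 133) in TAC and 143 CPM (71.4 to 256) in Sham, with intervals that overlapped those of fibroblast-like cells, at 79.1 CPM in TAC and 80.3 CPM in Sham. Endothelial-like cells held it at 16.8 CPM in TAC and 54.9 CPM in Sham, and its lymphatic endothelial-like count was 4 UMIs in TAC and 0 in Sham.

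Each ID gene had its own pattern over the classes. Id3 was high in all stromal classes, at 1246 CPM in TAC and 2447 CPM in Sham endothelial-like cells, 1307 and 1132 CPM in TAC and Sham mural-like cells, 943 and 1682 CPM in TAC and Sham fibroblast-like cells, and 61.5 and 73.4 CPM in TAC and Sham macrophage-like cells. The TAC endothelial-like and mural-like intervals overlapped, and the macrophage-like level was under 10% of the endothelial-like level, the limit used here for free RNA carried into droplets. Id1 was at 840 CPM in TAC and 1082 CPM in Sham endothelial-like cells. The TAC library placed neutrophil-like cells next, at 454 CPM (345 to 587, 58 UMIs in 67 cells), then mural-like cells at 154 CPM and lymphatic endothelial-like cells at 142 CPM, whose intervals overlapped. Sham neutrophil-like cells were only 6 and no level is given for them. Among the classes, Id2, a gene needed for innate lymphoid and natural killer cells, was highest in T and NK cell-like cells. It was at 1094 CPM (957 to 1244) in 37 TAC cells and 1016 CPM (852 to 1203) in 38 Sham cells. Macrophage-like cells were at 404 CPM in TAC and 466 CPM in Sham. Endocardial cells of the sub-gates described below held Id2 at 1302 CPM (1183 to 1430) in TAC and 779 CPM (663 to 909) in Sham. Both intervals overlapped those of T and NK cell-like cells. Id4 was under 10 CPM in every class of both libraries, and its highest level was in fibroblast-like cells, at 9.22 CPM in TAC and 9.36 CPM in Sham. Smad6 was highest in endothelial-like cells, at 57.4 CPM in TAC and 232 CPM in Sham, and had 0 UMIs in mural-like cells of both libraries.

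**Figure D1:**
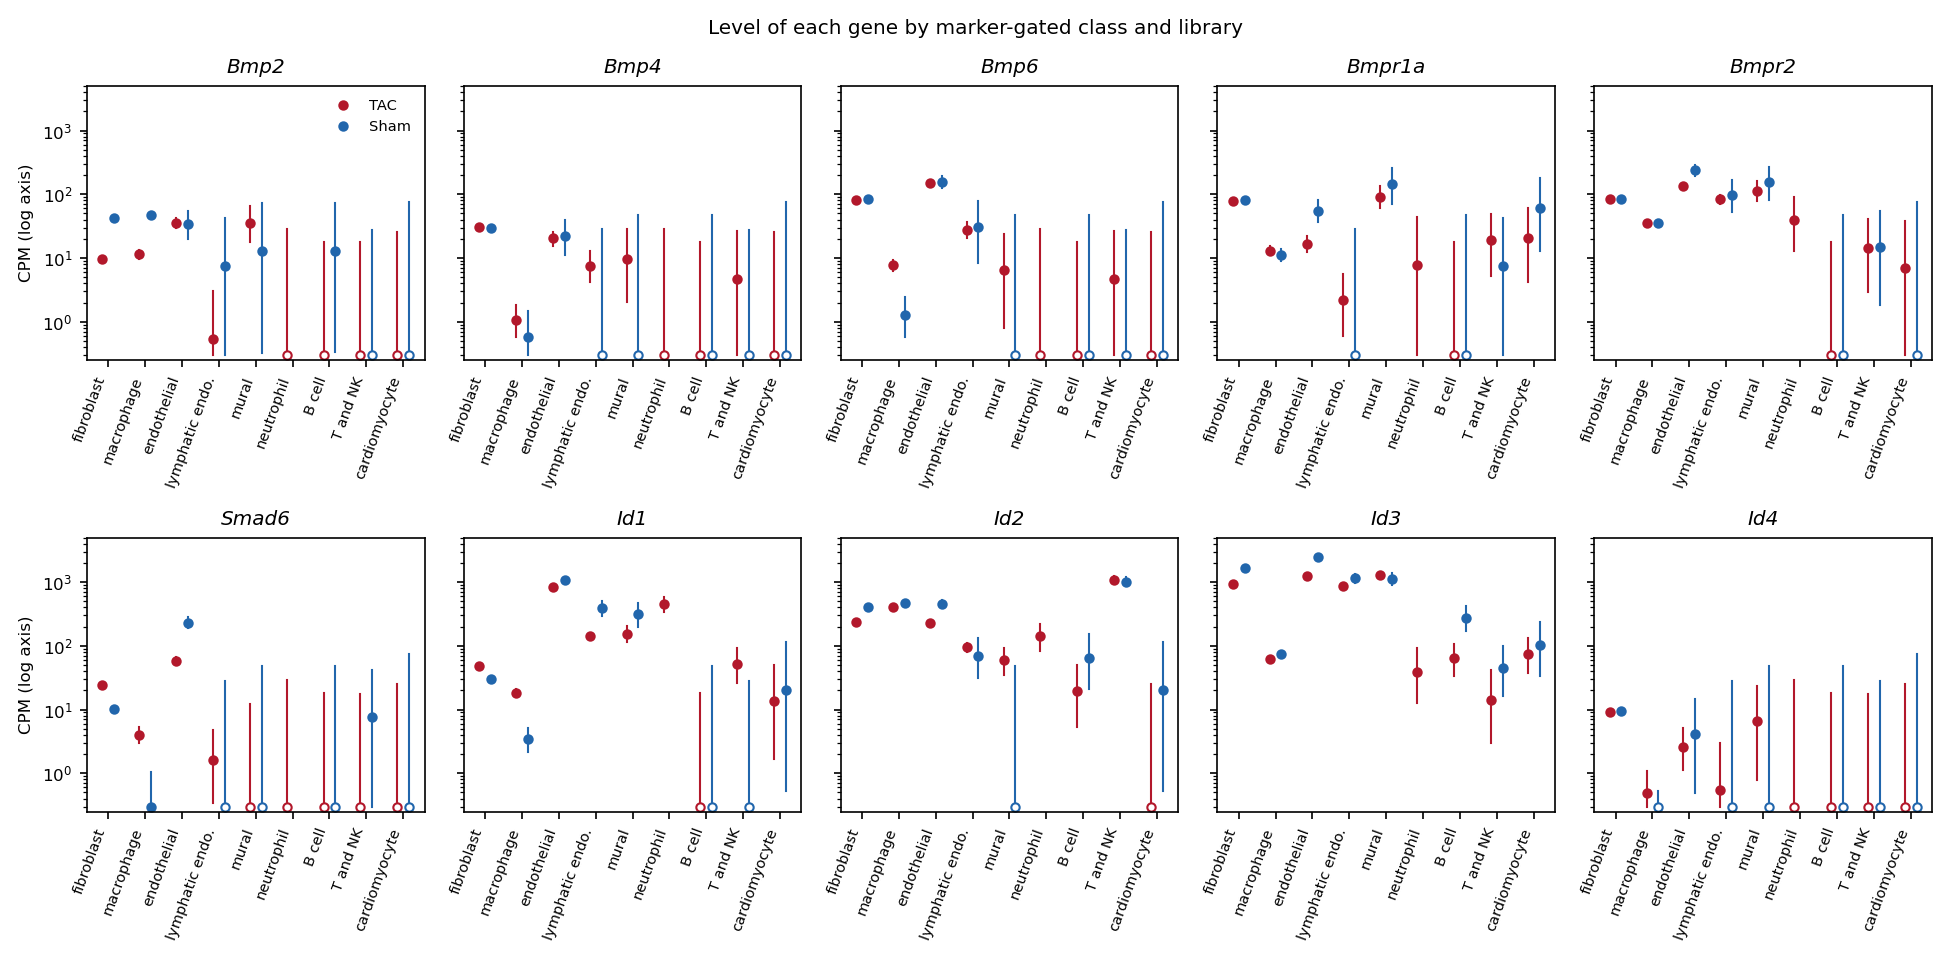
Level of each gene in CPM (log axis) in every marker-gated class with at least 20 cells, TAC in red at the left and Sham in blue at the right. Bars are exact 95% Poisson intervals, and open points at the foot of the axis are classes with 0 UMIs. Levels below the axis are drawn at its foot. Id3 spans the classes at 14.3 CPM and above in TAC. In macrophage-like cells Bmp6 is at 7.72 CPM in TAC and 1.28 CPM in Sham, and Smad6 at 4.03 CPM in TAC and 0.285 CPM in Sham.

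The question of the design is what pressure overload changed in these cells. A gene was called where it had at least 10 CPM in either library and its CPM + 1 differed at least 2-fold. By that rule 268 of 8807 genes (3.04%) were higher and 215 (2.44%) lower in TAC fibroblast-like cells, and of the 9 genes of the set measured there 1 was higher (Smad6) and 1 lower (Bmp2), with a median log2 ratio of -0.02 against -0.06 over all genes measured. In macrophage-like cells 3.32% of genes were higher and 1.56% lower in TAC, and of 6 members measured 1 was higher (Id1) and 1 lower (Bmp2). In endothelial-like cells 7.1% of genes were higher and 8.86% lower in TAC, and of 9 members measured 0 were higher and 3 lower (Smad6, Bmpr1a and Id2), with a median log2 ratio of -0.81 against -0.10 over all genes measured. In lymphatic endothelial-like cells 13.7% of genes were higher and 11.7% lower in TAC, and of 5 members measured 0 were higher and 1 lower (Id1).

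**Figure D2:**
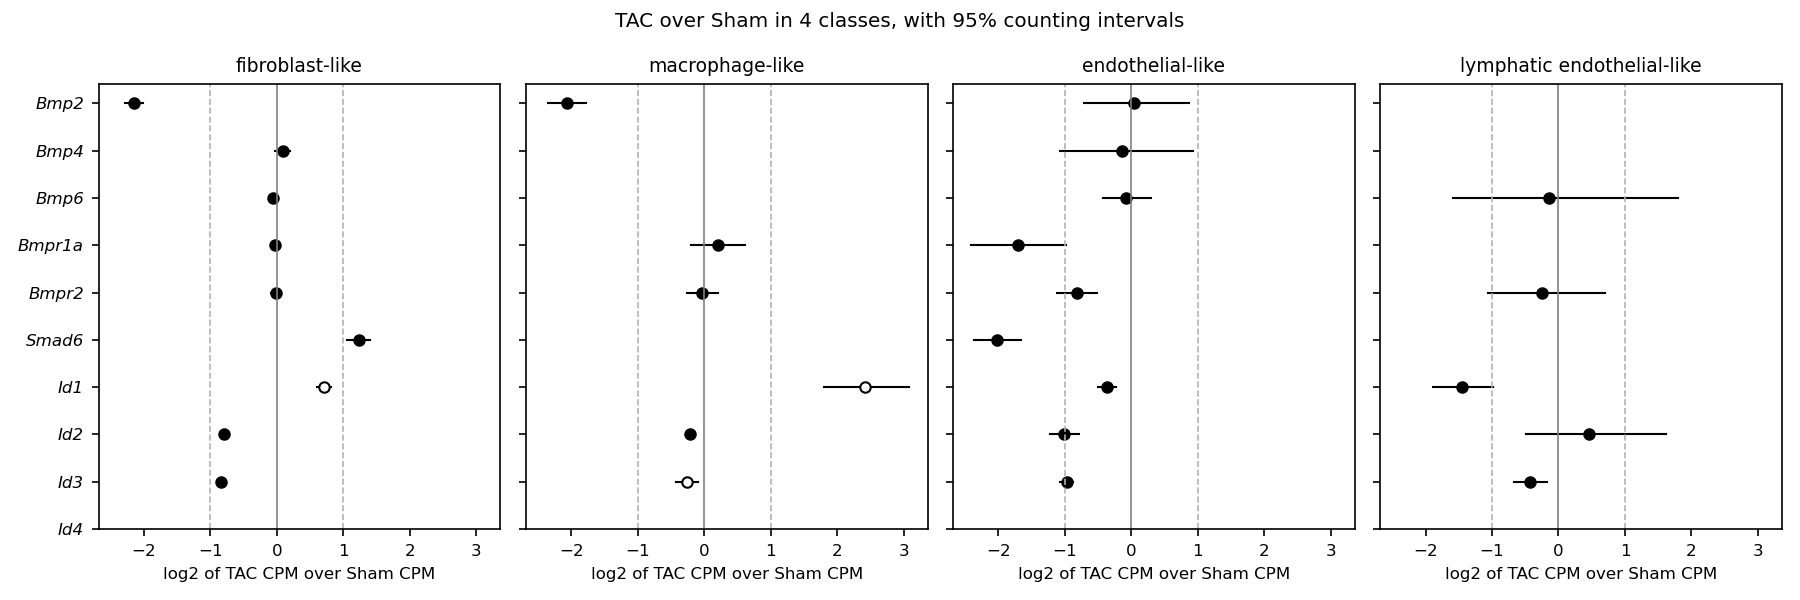
Log2 ratio of CPM in TAC over Sham (x axis) for each member with at least 10 CPM in either library, by class, with exact 95% counting intervals. Open points lie under the free-RNA limit and dashed lines mark a 2-fold difference; Bmp2 lies below -1 in fibroblast-like and macrophage-like cells but not in endothelial-like cells as a whole, and Smad6 lies on opposite sides of 0 in fibroblast-like and endothelial-like cells.

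Bmp2 was the member with the largest difference in fibroblast-like cells. It had 633 UMIs and 9.51 CPM in the TAC library, against 1322 UMIs and 42.2 CPM in the Sham library, 4.44-fold lower in TAC (interval 4.04 to 4.89). After every cell was thinned to 2000 UMIs, Bmp2 was seen in 1.80% of 5335 TAC fibroblast-like cells and in 7.32% of 5915 Sham ones. Lymphatic endothelial-like cells, where Bmp2 had 1 UMI in each library, gave 0 of 223 thinned TAC cells and 0 of 34 thinned Sham cells. Macrophage-like cells showed a difference of like size, with 11.4 CPM in TAC and 47.6 CPM in Sham, 4.17-fold lower (3.41 to 5.12), although 1 cell held 17.3% of the 139 TAC UMIs. In both classes Bmp2 was at least 2-fold lower under each alternative that was tried, but it did not reach the stricter minimum of 50 CPM. Endothelial-like cells held 35.5 CPM in TAC and 34.6 CPM in Sham, where 1 TAC cell carried 37.3% of the UMIs and the ratio interval ran from 0.613 to 1.83. After thinning, 1.23% of 569 TAC and 4.81% of 104 Sham endothelial-like cells had a Bmp2 UMI, and the log2 ratio was -0.73, against 0.04 without thinning.

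Bmp4 and Bmp6 had ratios near 1 in fibroblast-like cells and in endothelial-like cells, each class taken as a whole. In fibroblast-like cells the TAC over Sham ratio was 1.06 (0.981 to 1.15) for Bmp4 and 0.960 (0.916 to 1.01) for Bmp6, and in endothelial-like cells it was 0.909 (0.475 to 1.91) for Bmp4 and 0.950 (0.745 to 1.23) for Bmp6. In macrophage-like cells Bmp6 had 94 UMIs in TAC and 9 in Sham, a ratio of 6.02 (3.04 to 13.6), but was under 10 CPM in both libraries and at 5.19% of the TAC endothelial-like level, under the free-RNA limit.

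Both receptor genes had near-equal levels in fibroblast-like cells. The ratio was 0.984 (0.938 to 1.03) for Bmpr1a and 0.986 (0.941 to 1.03) for Bmpr2. In macrophage-like cells Bmpr2 had 34.8 CPM in TAC and 35.5 CPM in Sham, and Bmpr1a 12.98 CPM in TAC and 11.3 CPM in Sham. Endothelial-like cells differed: Bmpr1a had 52 UMIs and 16.8 CPM in TAC, against 27 UMIs and 54.9 CPM in Sham, 3.27-fold lower (1.98 to 5.31), and Bmpr2 had 135 CPM in TAC against 238 CPM in Sham, a ratio of 0.567 (0.461 to 0.702). The Bmpr1a difference turned round when classes were taken from clusters, with 14 UMIs in TAC and 0 in Sham, and was under 2-fold among cells low in dissociation-list RNA (log2 -0.70).

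Smad6 was higher in TAC in 1 stromal class and lower in another. Fibroblast-like cells had 1606 UMIs and 24.1 CPM in TAC, against 322 UMIs and 10.3 CPM in Sham, 2.35-fold higher (2.08 to 2.65), and thinned cells with a UMI made up 4.54% in TAC and 1.83% in Sham. No thinned mural-like cell, of 62 in TAC and 19 in Sham, had a Smad6 UMI. Endothelial-like cells had 178 UMIs and 57.4 CPM in TAC, against 114 UMIs and 232 CPM in Sham, 4.04-fold lower (3.16 to 5.14), and 11.6% of thinned TAC cells and 27.9% of thinned Sham cells had a UMI. Endothelial markers were also higher in TAC than in Sham fibroblast-like cells (27.3 and 6.61 CPM). Among the 4257 TAC and 5887 Sham fibroblast-like cells without any UMI of those markers, Smad6 was at 22.9 CPM in TAC and 9.92 CPM in Sham, a log2 ratio of 1.13 against 1.15 in all cells of the class. The fibroblast-like call was lost with a pseudocount of 10 (log2 0.75) and at a minimum of 50 CPM, and the endothelial-like call when classes came from clusters (45.6 CPM in TAC and 79.9 CPM in Sham, log2 -0.80).

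Id2 and Id3 were lower in TAC fibroblast-like cells without reaching 2-fold. Id3 had 62811 UMIs and 943 CPM in TAC, against 52658 UMIs and 1682 CPM in Sham, a ratio of 0.561 (0.554 to 0.567). Id2 had 234 CPM in TAC against 409 CPM in Sham, a ratio of 0.573 (0.560 to 0.587). Id1 ran the other way, at 48.7 CPM in TAC and 29.9 CPM in Sham, a ratio of 1.63 (1.52 to 1.76), but these levels were 5.80% of the TAC and 2.76% of the Sham endothelial-like level and so under the free-RNA limit. Id1 stood to the 6 endothelial markers at 1.79 in TAC and 4.52 in Sham fibroblast-like cells, against 0.151 in TAC and 0.236 in Sham endothelial-like cells. Among fibroblast-like cells without any UMI of those markers, Id1 was at 44.8 CPM in TAC and 28.6 CPM in Sham. The log2 ratio was 0.63 there against 0.69 in all cells of the class, and the part of free RNA was not tested. In endothelial-like cells all 3 were lower in TAC: Id1 had 840 CPM in TAC and 1082 CPM in Sham (ratio 0.776, 0.707 to 0.854), Id2 had 228 CPM in TAC and 458 CPM in Sham (0.497, 0.427 to 0.580), and Id3 had 1246 CPM in TAC and 2447 CPM in Sham (0.509, 0.477 to 0.544). The Id2 call lay at the threshold and was lost under 7 settings, with a log2 ratio of -0.52 at a gate ratio of 1.5. Lymphatic endothelial-like cells had Id1 at 142 CPM in TAC and 389 CPM in Sham, 2.73-fold lower (1.98 to 3.70), with 39.2% of the 51 Sham UMIs in 1 cell.

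Per cell, Id3 in fibroblast-like cells differed more in its mean than in the share of cells with a UMI. After thinning, 62.2% of TAC and 66.7% of Sham cells had at least 1 Id3 UMI, while the mean was 1.87 UMIs in TAC and 3.31 in Sham. Cells with 15 or more Id3 UMIs made up 0.131% in TAC and 3.18% in Sham. T and NK cell-like cells, where Id3 was low, had a UMI in 5.56% of 36 thinned TAC cells and 6.67% of 30 thinned Sham cells.

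**Figure D3:**
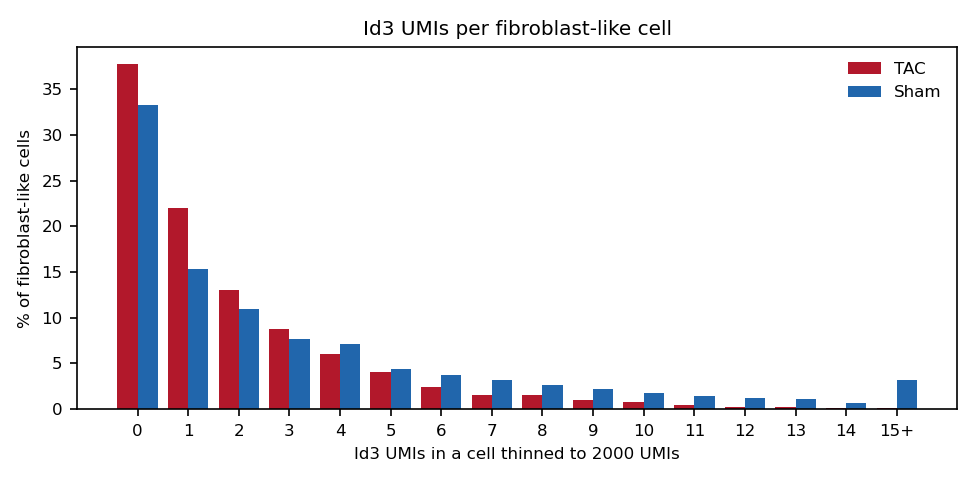
Share of fibroblast-like cells (y axis, %) by the number of Id3 UMIs after thinning each cell to 2000 UMIs (x axis), TAC in red and Sham in blue. Cells without a UMI are 37.8% in TAC and 33.3% in Sham, and the Sham bars exceed the TAC bars at high counts.

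In macrophage-like cells Id2 had 404 CPM in TAC and 466 CPM in Sham, a ratio of 0.867 (0.829 to 0.907). Id1 had 222 UMIs and 18.2 CPM in TAC, against 24 UMIs and 3.42 CPM in Sham, 5.33-fold higher (3.49 to 8.50). That level is 2.17% of the TAC endothelial-like level, and the 6 endothelial markers were also higher in TAC macrophage-like cells (84.0 CPM in TAC and 21.1 CPM in Sham). Id1 stood to those markers at 0.217 in TAC and 0.162 in Sham macrophage-like cells, and at 0.151 in TAC and 0.236 in Sham endothelial-like cells. Among macrophage-like cells low in stromal markers Id1 was under 10 CPM, with 7.12 CPM in TAC and 1.35 CPM in Sham, and in macrophage-like clusters it was at 4.64 CPM in TAC and 4.32 CPM in Sham. The part of free RNA in the difference was not tested.

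Genes known to respond to tissue digestion also differed between the libraries. The 15 genes of a dissociation list, among them Fos, Jun, Egr1 and Hspa1a, summed to 13514 CPM in TAC and 24998 CPM in Sham fibroblast-like cells, 18755 and 24628 CPM in TAC and Sham macrophage-like cells, 9035 and 11167 CPM in TAC and Sham endothelial-like cells, and 13883 and 16661 CPM in TAC and Sham lymphatic endothelial-like cells. Of the 15 genes, 7 were lower by the 2-fold rule in TAC fibroblast-like cells and 0 higher; 3 were lower in each of the other classes, and 1 was higher in lymphatic endothelial-like cells. The fibroblast-like cells were split at 1.70% of UMIs from this list, the median over both libraries, which put 3820 TAC cells (70.8%) and 1908 Sham cells (31.5%) at or below it.

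The genes behaved differently across this split. Id3 had 801 CPM in TAC and 907 CPM in Sham cells at or below the median share (ratio 0.883, 0.863 to 0.905), and 1298 CPM in TAC and 2016 CPM in Sham cells above it (0.644, 0.634 to 0.654). Id2 had 190 CPM in TAC and 266 CPM in Sham cells at or below it (0.712, 0.681 to 0.745), and 345 CPM in TAC and 470 CPM in Sham cells above it (0.734, 0.712 to 0.757). Within each library, Id2 and Id3 were thus higher in the cells with more dissociation-list RNA. Bmp2 stayed 3.78-fold lower in TAC at or below the median share, at 9.45 CPM in TAC and 35.8 CPM in Sham, and 4.67-fold lower above it, at 9.64 CPM in TAC and 45.0 CPM in Sham. Smad6 was 2.36-fold higher in TAC at or below it (1.90 to 2.97) and 2.73-fold higher above it (2.34 to 3.198). In endothelial-like cells at or below their own median share, Id3 had 1171 CPM in TAC and 1406 CPM in Sham, a ratio of 0.833 (0.730 to 0.954), against 0.428 (0.396 to 0.462) above it, and Smad6 was lower in TAC on both sides, with ratios of 0.427 and 0.161. Id1 in endothelial-like cells had 570 CPM in TAC and 544 CPM in Sham at or below that median (ratio 1.05, 0.850 to 1.31), and 1067 CPM in TAC and 1399 CPM in Sham above it (0.762, 0.686 to 0.849). The part of dissociation in these differences was not tested.

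**Figure D4:**
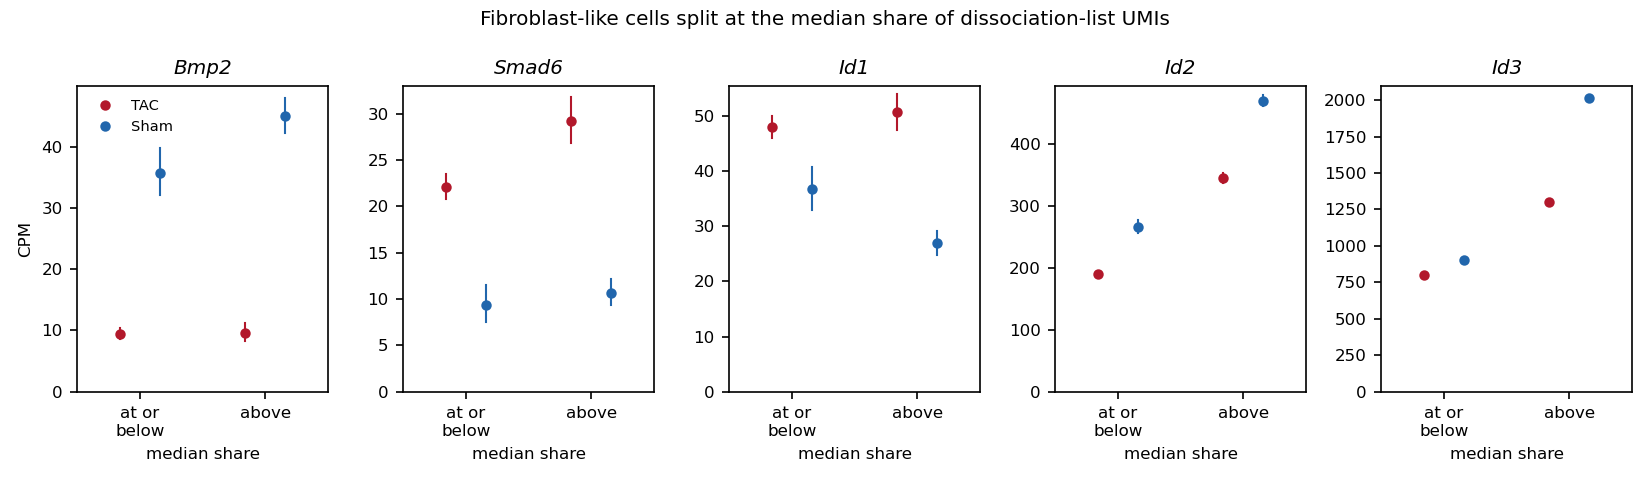
CPM of 5 members in fibroblast-like cells at or below and above the median share of UMIs from the dissociation list, TAC in red at the left and Sham in blue at the right, with exact 95% Poisson intervals and axes from 0. Bmp2 and Smad6 are apart on both sides of the median, while the Id3 points lie close together at or below it (801 CPM in TAC and 907 CPM in Sham).

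Fibroblast-like cells were divided further by sub-markers counted after thinning. Activated cells, with genes such as Postn and Cilp, were 2577 in TAC (48.3%) and 96 in Sham (1.62%), adventitial cells, with genes such as Pi16 and Dpp4, were 619 in TAC (11.6%) and 1979 in Sham (33.5%), and 2139 TAC and 3840 Sham cells were neither. Bmp2 was lower in TAC in adventitial cells and in cells that were neither: 12.5 CPM in TAC and 43.5 CPM in Sham adventitial cells (ratio 0.288, 0.229 to 0.358), and 11.2 CPM in TAC and 42.2 CPM in Sham cells that were neither (0.266, 0.232 to 0.305). Activated cells had 7.51 CPM in TAC and 14.4 CPM in Sham, from 8 Sham UMIs, with a ratio interval from 0.260 to 1.22. Smad6 had 19.0 CPM in TAC and 10.9 CPM in Sham adventitial cells (1.75, 1.37 to 2.24), 21.4 CPM in TAC and 9.64 CPM in Sham cells that were neither (2.22, 1.87 to 2.63), and 27.4 CPM in TAC and 19.8 CPM in Sham activated cells (1.38, 0.768 to 2.77). Id3 was lower in TAC in each of the 3, with ratios of 0.616 in activated, 0.484 in adventitial and 0.540 in the other cells. Bmp4 had 29.4 CPM in TAC and 20.4 CPM in Sham adventitial cells, a ratio of 1.44 (1.19 to 1.74). Its ratio was 0.960 (0.866 to 1.06) in cells that were neither and 0.843 (0.543 to 1.39) in activated cells.

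The endothelial-like class had a different make-up in each library. Of its cells with at least 2000 UMIs, endocardial cells were 35 in TAC (6.15%) and 50 in Sham (48.1%), and capillary cells 506 in TAC (88.9%) and 29 in Sham (27.9%). Smad6 in endocardial cells was at 140 CPM in TAC and 402 CPM in Sham, a ratio of 0.348 (0.238 to 0.503), while capillary cells held 103 UMIs and 41.4 CPM in TAC and 0 UMIs in 29 Sham cells. The exact interval of the Sham count reached 45.3 CPM and overlapped the TAC interval of 33.8 to 50.2 CPM, so a difference in capillary cells was not detectable at this depth. Id3 was lower in TAC in endocardial cells, at 1299 CPM in TAC and 2865 CPM in Sham (0.453, 0.400 to 0.514), and also in capillary cells, at 1218 CPM in TAC and 1669 CPM in Sham (0.730, 0.615 to 0.873). Id1 was lower in TAC in both, with ratios of 0.553 (0.443 to 0.692) in endocardial and 0.686 (0.566 to 0.839) in capillary cells.

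Some members differed within sub-gates in ways the class-wide ratio did not show. Bmp2 had 49 UMIs and 19.7 CPM in TAC and 6 UMIs and 73.6 CPM in Sham capillary cells, a ratio of 0.267 (0.114 to 0.764), and 1 UMI in TAC and 3 UMIs in Sham endocardial cells. Bmp6 had 749 CPM in TAC and 247 CPM in Sham endocardial cells, 3.03-fold higher (2.24 to 4.18), and 61.5 CPM in TAC and 85.9 CPM in Sham capillary cells, while the ratio over the whole class was 0.950. Id2 had 1302 CPM in TAC and 779 CPM in Sham endocardial cells, a ratio of 1.67 (1.39 to 2.01), and 69.1 CPM in TAC and 295 CPM in Sham capillary cells, a ratio of 0.235 (0.153 to 0.376). Bmpr1a had 113 CPM in TAC and 87.1 CPM in Sham endocardial cells (1.30, 0.722 to 2.41), and 7 UMIs in TAC and 0 in Sham capillary cells. Bmpr2 had 262 CPM in TAC and 271 CPM in Sham endocardial cells, and 111 CPM in TAC and 282 CPM in Sham capillary cells. The class-wide values for Bmp2, Bmp6, Bmpr1a, Bmpr2, Id2 and Smad6 therefore stand beside a change in the mix of cells, and the differences between sub-gates were not tested.

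**Figure D5:**
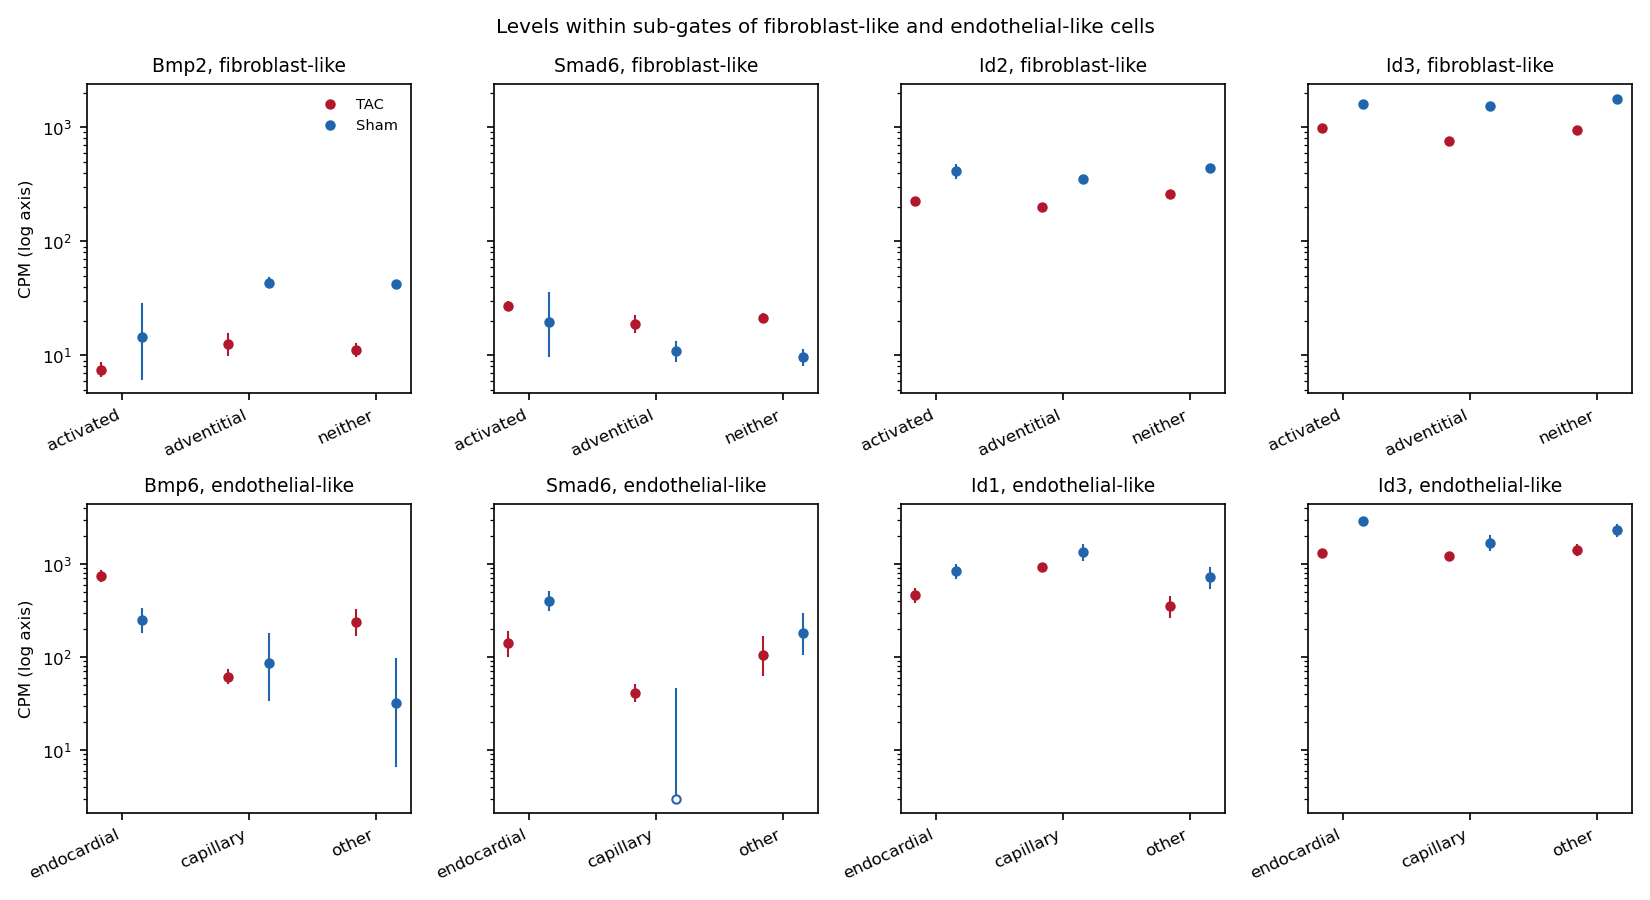
CPM (log axis) of members within sub-gates of fibroblast-like cells (top) and endothelial-like cells (bottom), TAC in red at the left and Sham in blue at the right, with exact 95% Poisson intervals; the open point is 0 UMIs. Bmp6 is higher in TAC than in Sham endocardial cells (749 and 247 CPM), and Smad6 is lower there (140 and 402 CPM).

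Macrophage-like cells were divided into resident cells, with genes such as Timd4 and Lyve1 (196 in TAC, 372 in Sham), and cells with Ccr2 and MHC class II genes (590 in TAC, 557 in Sham). Bmp2 was at 23.4 CPM in TAC and 55.8 CPM in Sham resident cells (0.419, 0.298 to 0.581), and at 8.74 CPM in TAC and 41.5 CPM in Sham Ccr2 and MHC class II cells (0.211, 0.158 to 0.280). Bmp6 had 66 UMIs and 29.7 CPM in TAC resident cells and 1 UMI in Sham resident cells, and 3.14 CPM in TAC and 1.72 CPM in Sham Ccr2 and MHC class II cells. Few cells carried these counts: 2.72% of all 881 TAC macrophage-like cells had a Bmp6 UMI, and 1 cell held 26.6% of their 94 UMIs. The level over the whole class was under the free-RNA limit. The 29.7 CPM of TAC resident cells alone was over 10% of the TAC endothelial-like level of 149 CPM. Bmpr1a in resident cells was at 27.0 CPM in TAC and 12.9 CPM in Sham, a ratio of 2.09 (1.33 to 3.33). Resident cells also held Smad6 at 23 UMIs in TAC and 1 in Sham, and Id1 at 36 UMIs in TAC and 9 in Sham (4.32, 2.04 to 10.2). The Id1 ratio in Ccr2 and MHC class II cells was 4.91 (2.79 to 9.43). Id3 went opposite ways, with a ratio of 1.38 (1.11 to 1.73) in resident cells and 0.646 (0.559 to 0.747) in Ccr2 and MHC class II cells.

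The pathway was also read over a list of 63 ligands, receptors, SMADs, antagonists, other inhibitors, targets and E protein partners, the 10 members included. Over all genes measured in fibroblast-like cells, 3.04% were higher and 2.44% lower in TAC. Of the list 40 were measured there, 2 higher and 3 lower in TAC, with a median log2 ratio of 0.00. Beside Smad6 the other higher gene was Fstl3, which encodes an activin-binding protein of the follistatin family (38.5 CPM in TAC and 17.3 CPM in Sham, under 2-fold with a pseudocount of 10 at log2 0.83). Beside Bmp2 the lower genes were Tmem100, a target of BMP receptor signalling in endothelium (36.3 CPM in TAC and 83.3 CPM in Sham), and Tob1, an antiproliferative gene whose product dampens BMP signals (26.2 CPM in TAC and 62.9 CPM in Sham). The antagonist Chrd had 25.6 CPM in TAC and 46.5 CPM in Sham, and Nbl1, which encodes a secreted antagonist, 321 CPM in TAC and 182 CPM in Sham. The E protein genes Tcf3, Tcf4 and Tcf12 were close to equal, with ratios of 1.01, 0.951 and 0.899.

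Over all genes measured in endothelial-like cells, 7.1% were higher and 8.86% lower in TAC. Of the 63 listed 40 were measured there, 2 higher and 9 lower in TAC, with a median log2 ratio of -0.32. Gdf6, a BMP family ligand gene, had 125 UMIs and 40.3 CPM in TAC and 0 UMIs in Sham, at least 6.61-fold higher against the floor of 3 UMIs over the Sham class, and Sost, which encodes a secreted inhibitor of WNT signals, 52.3 CPM in TAC and 12.2 CPM in Sham. Among the lower genes, Gdf10 had 3.23 CPM in TAC and 95.6 CPM in Sham, Nbl1 62.0 CPM in TAC and 330 CPM in Sham, Fst, the follistatin gene, 1.61 CPM in TAC and 30.5 CPM in Sham, Tmem100 24.9 CPM in TAC and 95.6 CPM in Sham, and the target gene Hey1 49.4 CPM in TAC and 104 CPM in Sham. Some of these counts were low. Sost had 6 UMIs in Sham, with a ratio interval from 1.93 to 11.8. Fst had 5 UMIs in TAC and 15 in Sham, and Gdf10 had 10 in TAC and 47 in Sham. Smad7, the other inhibitory SMAD gene, had 190 CPM in TAC and 352 CPM in Sham. The type I receptor gene Acvrl1, which serves BMP9 and BMP10 in endothelium, had 172 CPM in TAC and 114 CPM in Sham, and Tcf4 1194 CPM in TAC and 621 CPM in Sham. When classes came from clusters, Gdf6 (log2 0.43) and Nbl1 (-0.74) were under 2-fold, Tcf4 was at 0.16 against 0.94 as gated, and Acvrl1 turned to -0.11 against 0.59 as gated. Sost was under 2-fold in 3 of 14 settings, with clusters, a gate ratio of 3 and thinning, where it was at 0.08. Hey1 was under 2-fold in 6 of 14 settings, down to -0.0040 under the stricter cell filter. The whole endothelial-like list shares the difference in cell mix given above.

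Over all genes measured, 3.32% were higher and 1.56% lower in TAC macrophage-like cells, and 13.7% and 11.7% in TAC lymphatic endothelial-like cells. Macrophage-like cells had 26 of the 63 measured, 2 higher and 1 lower, and lymphatic endothelial-like cells 32, 0 higher and 7 lower. The macrophage-like genes were Id1, Bmp2 and Fstl1, which encodes a secreted follistatin-like protein (34.9 CPM in TAC and 15.96 CPM in Sham, under the free-RNA limit). Smad7 had 35.5 CPM in TAC and 20.5 CPM in Sham macrophage-like cells. In lymphatic endothelial-like cells Hey1 had 28.8 CPM in TAC and 91.5 CPM in Sham, 3.18-fold lower (1.54 to 6.02) from 12 Sham UMIs. Tob1 had 78.3 CPM in TAC and 198 CPM in Sham, 2.53-fold lower (1.60 to 3.86) from 26 Sham UMIs. Tob1 was under 2-fold with classes from clusters (log2 -0.85).

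Genes with the most similar levels were sought over 9 sums of 1 class in 1 library, among 6171 genes, by Pearson correlation of log2(CPM + 10). Id3 came closest to Snx21 (r = 0.991), Bmp4 to Socs2 (0.987), Smad6 to Cytl1 (0.979), one of the endocardial sub-markers used here, Id2 to Cbfb (0.979), Bmp6 to Plpp3 (0.975), Bmpr1a to Sobp (0.974), Bmpr2 to Foxc1 (0.973), Id1 to Ankrd37 (0.969) and Bmp2 to Zfp800 (0.891). The 9 sums share 2 libraries and their depths, so these values describe the pattern of levels only.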

How the data were processed

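The authors' matrices, 1 for TAC and 1 for Sham, give unnormalized UMI counts of each gene in each barcode; the authors' software version is 3.1.0 per the file headers, and Cell Ranger, Seurat and the mm10 build are named in the submitters' processing notes. Cells kept had at least 500 genes, at least 1000 UMIs and at most 15% mitochondrial UMIs, which removed 901 TAC and 462 Sham barcodes. Scrublet (Scanpy 1.11.5, expected rate 0.07) then removed 146 TAC and 70 Sham doublets. For each of 12 classes, the mean log1p of UMIs per 10000 over 6 markers was taken per cell; a cell took the class with the highest mean if at least 3 markers were seen and the mean was at least 2 times every other, which left 469 TAC and 341 Sham cells ungated. The authors' cell names were not used, so differences from other work can come from the rebuilt classes. For every class and library, UMIs were summed to CPM, with exact Poisson intervals (95%), and ratios with exact conditional intervals, in SciPy 1.17.1. Sub-gates needed 2 of 6 sub-markers in cells thinned to 2000 UMIs. A level under 10% of the highest class of at least 50 cells in its library was taken as within free RNA. A count of 0 was bounded at 3 UMIs. With 1 library per group no test was possible. Pathway genes were named by size of the ratio, up to 3 per role at 20 CPM or more; some that were called, such as Fstl1 in macrophage-like cells, were named after their values were seen. The 10 genes, the lists and the sub-markers were chosen with earlier results of these data known. The ratio and interval steps were tested on simulated counts. Gene IDs of the 10 members all matched GENCODE vM21, and promoters are RefSeq's on GRCm38.p6. Alternatives changed the cell filter, doublets, gate, clustering, depth, scaling, pseudocount and low-value filter.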

Additional observations from a re-analysis of the deposited data

Results flagged for a closer look

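Smad6 went in opposite directions in 2 classes of the same pair of libraries. Its log2 ratio of CPM + 1 was 1.15 in fibroblast-like cells and -1.99 in endothelial-like cells, a difference of 3.15, which was not tested because each group is 1 library. The endothelial-like value was -0.80 when classes came from clusters. Endocardial cells made up 6.15% of TAC and 48.1% of Sham endothelial-like cells with at least 2000 UMIs. Capillary cells held 103 Smad6 UMIs in 506 TAC cells and 0 in 29 Sham cells, where a difference was not detectable at this depth.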

How the results depend on the processing

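No paired analysis was possible because each group is 1 library and the labels carry no replicate numbers; leaving out a replicate was not possible for the same reason. Counts of called members and of called pathway genes moved by over 1.5 times as follows, and the cause was not tested. In fibroblast-like cells the members called were 1 with a pseudocount of 10 and 0 at a minimum of 50 CPM (2 as reported), and the pathway genes 3 and 2 (5 as reported). In macrophage-like cells the members were 0 at 50 CPM, 4 with no low-value filter and 1 among cells low in stromal markers (2 as reported), and the pathway genes 5 with Leiden clusters, 0 at 50 CPM and 9 with no low-value filter (3 as reported). In endothelial-like cells the members were 1 with Leiden clusters and 1 among cells low in dissociation-list RNA (3 as reported), and the pathway genes 7 with Leiden clusters (11 as reported). In lymphatic endothelial-like cells the members were 5 with no low-value filter and 2 among cells low in dissociation-list RNA (1 as reported), and the pathway genes 3 at 50 CPM and 14 with no low-value filter (7 as reported). Of the 96 log2 ratios of single genes in a class, 37 changed sign under some setting, and 35 of these were under 2-fold as reported; examples are Acvr2a in lymphatic endothelial-like cells (-0.66 as reported, 4.11 among cells low in dissociation-list RNA) and Acvr1 in endothelial-like cells (-0.96 as reported, 0.50 with Leiden clusters). Among ratios past 2-fold as reported, the sign turned round for Bmpr1a in endothelial-like cells with Leiden clusters (2.56, 14 UMIs in TAC and 0 in Sham) and for Atoh8 in lymphatic endothelial-like cells low in dissociation-list RNA (2.69, 5 UMIs in TAC and 0 in 24 Sham cells). That last setting kept classes of at least 20 cells. Lymphatic endothelial-like cells gave no value under the stricter cell filter, a gate ratio of 3 or thinning, with 33, 23 and 34 Sham cells. Id3 in fibroblast-like cells ranged from -0.87 to -0.18. Low-stromal macrophage-like cells, fibroblast-like cells without endothelial markers and the lymphatic class were chosen after seeing the data. Depth limits the Sham endothelial-like and lymphatic endothelial-like classes, with 166 and 49 cells.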
